A study of Mus musculus with 12 samples.

Results

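The D-type cyclins, the kinases CDK4 and CDK6 that they switch on, and the inhibitors of these kinases were followed as messenger RNA in CD8+ T cells sorted from Panc02 tumours, which are grown from a pancreatic cancer cell line of the mouse. The set held 9 genes, taken by symbol from a table of 56941 genes, namely Ccnd2, Ccnd3, Cdk4, Cdk6, Cdkn1a, Cdkn1b, Cdkn2a, Cdkn2c and Cdkn2d. All 9 were among the 18657 genes that passed a filter on low counts and were tested. The relatives Ccnd1, Cdkn1c and Cdkn2b were not part of the set and are given beside it.

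A D-type cyclin binds CDK4 or CDK6, and the complex phosphorylates the retinoblastoma protein, which frees E2F transcription factors to switch on genes of DNA synthesis. INK4 inhibitors, encoded by the Cdkn2 genes, bind CDK4 and CDK6 themselves, while Cip/Kip inhibitors, encoded by the Cdkn1 genes, bind cyclin-CDK complexes and above all block CDK2. In T cells, antigen and interleukin-2 induce D-type cyclins and CDK6, and the Cip/Kip inhibitor encoded by Cdkn1b holds resting cells out of division.

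Cells in the 4 groups were live (DAPI-), CD45.2+ and CD8+, and were split by asialo-GM1 (asGM1), a glycolipid of the cell surface. The groups were anti-PD-1 asGM1-positive, anti-PD-1 asGM1-negative, isotype asGM1-positive and isotype asGM1-negative, with 3 libraries each. All came from wild type C57BL/6J mice, so every group shared strain, genotype and tumour line. Dose, day of harvest, the age of the mice and whether animals were pooled are not given in the sources used here, and no gate on CD3 or the T cell receptor is named. The labels do not say that libraries came from separate mice, and p-values here speak of library-to-library spread, part of which may be technical.

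Library totals ran between 58.1 and 73.2 M counts. Levels are given as CPM, counts scaled to a common library total after trimmed mean of M-values (TMM) scaling, and 3 counts correspond to 0.0406 to 0.0524 CPM. Cd8a stood between 1591 and 2581 CPM in all 12 libraries. The heat-shock gene Hspa1a set both anti-PD-1 replicate 2 libraries apart, with 146 CPM in the asGM1-positive one and 151 CPM in the asGM1-negative one, while the other 4 anti-PD-1 libraries held between 22.5 and 32.6 CPM and the isotype libraries between 188 and 440.3 CPM. Counts of the 9 genes that rest on these libraries are therefore given with and without them.

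Cdk4 and Cdk6 are the catalytic partners in the module and both fell in anti-PD-1 libraries, so the 250 bases upstream of their annotated starts are shown from RefSeq (GRCm38.p6, while the submitters name mm39 for their counts). The Cdk4 window lies at chr10:127063285-127063534 and the Cdk6 window at chr5:3343643-3343892, both on the plus strand. Capitals mark the E-box CACGTG, the letters bound by MYC with its partner MAX, which read the same on both strands.
Cdk4: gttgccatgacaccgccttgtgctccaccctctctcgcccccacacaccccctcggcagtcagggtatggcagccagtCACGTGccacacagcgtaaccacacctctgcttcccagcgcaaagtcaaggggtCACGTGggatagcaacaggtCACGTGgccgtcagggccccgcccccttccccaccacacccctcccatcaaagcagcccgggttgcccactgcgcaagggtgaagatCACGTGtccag
Cdk6: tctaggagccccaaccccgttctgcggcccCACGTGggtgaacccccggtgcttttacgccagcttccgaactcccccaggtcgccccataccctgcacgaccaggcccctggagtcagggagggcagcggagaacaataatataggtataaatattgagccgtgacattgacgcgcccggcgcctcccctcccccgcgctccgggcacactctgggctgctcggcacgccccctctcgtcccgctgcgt
The 4 E-boxes of the Cdk4 window began 172, 118, 98 and 11 bases upstream of the start, and the single one of the Cdk6 window 220 bases upstream. No window of the other members held CACGTG, which occurred in 6.02% of the 32851 RefSeq promoter windows of that length. Entries were found for 8 of the 9 genes, in 12 windows. Ccnd2 had no entry, so its promoter was not searched. The E2F motifs TTTCCCGC (0.895% of windows) and TTTGGCGC (0.417%), searched on both strands, were found only in 1 Cdkn2a window, where TTTCCCGC lay 99 bases upstream. These are matches of letters, and binding was not measured.

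Per kilobase of exon, so that genes can be set in order, Cdkn2d had the highest level of the 9 genes, with a mean of 86.4 CPM per kilobase over the 12 libraries (range 63.5 to 118). Next came Cdk4 with 72.5 (56.0 to 85.2), Ccnd3 with 50.9 (34.3 to 74.2), Cdkn1a with 31.4 (19.7 to 44.2) and Ccnd2 with 28.6 (17.4 to 50.5) CPM per kilobase. Cdkn2c averaged 10.6 (6.96 to 14.0), Cdk6 averaged 7.93 (4.74 to 11.8) and Cdkn1b averaged 2.50 CPM per kilobase (1.23 to 4.10). Cdkn2a was last with 0.180 CPM per kilobase (0 to 0.513). The ranges of neighbours in this order overlapped, except between Ccnd2 and Cdkn2c, between Cdk6 and Cdkn1b, and between Cdkn1b and Cdkn2a. The order of group means was the same for the 9 genes in each group, except that Ccnd2 (45.3 CPM per kilobase) stood above Cdkn1a (25.7) in isotype asGM1-negative libraries. Of the relatives, Cdkn2b averaged 5.92, Ccnd1 0.394 and Cdkn1c 0.183 CPM per kilobase.

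**Figure D1:**
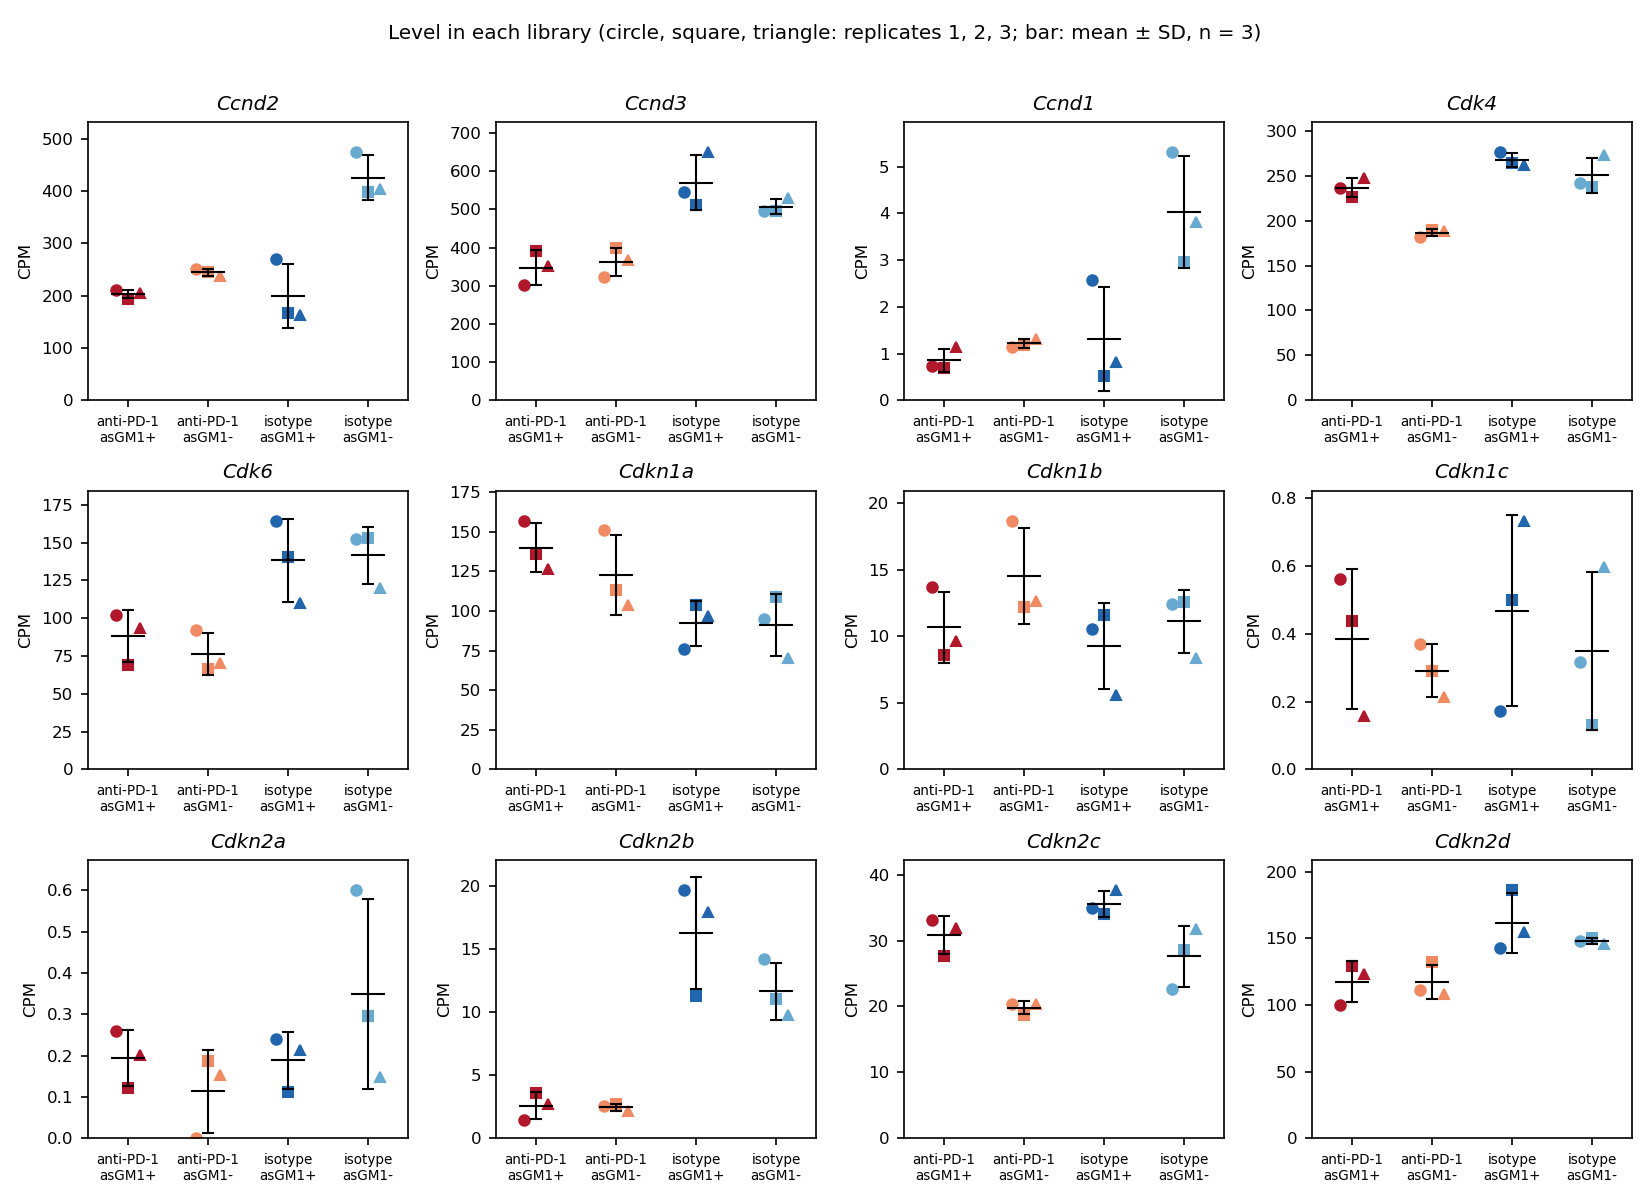
Level of the 9 genes and of the relatives Cdkn2b, Ccnd1 and Cdkn1c in each library, in CPM on a linear axis starting at 0, with 1 panel per gene and 1 point per library. Black bars are group means ± SD, with 3 libraries per group, and circles, squares and triangles are replicates 1, 2 and 3. Ccnd3, Cdk6 and Cdkn2d were lower in each anti-PD-1 library than in each isotype library, and so was Cdkn2b.

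The first comparison asked what PD-1 blockade did to the module. Averaged over both populations, anti-PD-1 libraries held less mRNA of Ccnd3, of Cdk4 and Cdk6 and of the INK4 inhibitors Cdkn2c and Cdkn2d, and more Cdkn1a, while the averaged fall of Ccnd2 came with a change of 0.02 on the log2 scale in asGM1-positive cells. In this averaged contrast 6 of the 9 genes fell, 1 rose and 2 did not pass (edgeR quasi-likelihood test, Benjamini-Hochberg adjusted p under 0.05 over all genes tested), where 18.3% of all genes tested passed (9.1% fell and 9.22% rose). The median log2 change was -0.39 over the 9 genes and -0.02 over all genes. This fit takes every library as independent, although same-numbered asGM1-positive and asGM1-negative libraries of one treatment deviated together (given further on). SEs and p-values averaged over populations can therefore be too small, and a fit with the pair as a block cannot test treatment. Without both anti-PD-1 replicate 2 libraries, 4 of the 9 genes passed, namely Ccnd3, Cdk4, Cdk6 and Cdkn2d. Calls over all genes dropped as well, to 2148 against 3417 with all libraries. These bulk values cannot tell fewer cells of a type from less RNA per cell.

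Ccnd3 encodes cyclin D3, which drives division of developing and activated lymphocytes. It held 301, 391 and 351 CPM in anti-PD-1 asGM1-positive libraries and 546, 513 and 651 CPM in isotype asGM1-positive libraries. The asGM1-negative libraries held 324, 398 and 367 CPM under anti-PD-1 and 495, 497 and 530.1 CPM under isotype. All 6 anti-PD-1 libraries lay below all 6 isotype libraries. Averaged over populations, Ccnd3 fell by 0.60 ± 0.09 on the log2 scale (SE, n = 6 libraries against 6; edgeR adjusted p = 0.000654), which is 33.9% lower. It fell in asGM1-positive cells by 0.71 ± 0.12 (adjusted p = 0.00467) and in asGM1-negative cells by 0.48 ± 0.12 (adjusted p = 0.0294). The asGM1-negative call was lost without any 1 of the 3 isotype libraries (adjusted p = 0.0642 to 0.0757) or without anti-PD-1 replicate 1 or 3 (0.123 and 0.0934).

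Ccnd2, which encodes cyclin D2, the D-type cyclin induced early by growth factors, passed the threshold in asGM1-negative cells and averaged over populations, while its interaction between treatment and population (given further on) did not pass. In asGM1-positive libraries it stood at 211, 195 and 205 CPM under anti-PD-1 and at 271, 166 and 164 CPM under isotype. Here the isotype libraries lay on both sides of the anti-PD-1 ones. In asGM1-negative libraries it stood at 252, 245 and 239 CPM under anti-PD-1 and at 475, 398 and 404 CPM under isotype, with no overlap. The log2 change was 0.02 ± 0.16 in asGM1-positive cells (95% interval -0.34 to 0.38; adjusted p = 0.970) and -0.80 ± 0.17 in asGM1-negative cells (adjusted p = 0.0121). The asGM1-negative call was lost without isotype replicate 1 (adjusted p = 0.0544) and without anti-PD-1 replicate 3 (0.0558) of that population. Without both anti-PD-1 replicate 2 libraries the edgeR adjusted p was 0.0642 in asGM1-negative cells and 0.134 averaged over populations, so both calls were lost. The averaged change of -0.39 ± 0.12 (adjusted p = 0.0379) missed the threshold when any of 8 of the 12 libraries was left out (adjusted p = 0.0539 to 0.0954): each of the 6 anti-PD-1 libraries, and isotype asGM1-negative replicates 1 and 2.

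Cdk4 is the kinase partner with the higher level per kilobase. The asGM1-positive values were 237, 226 and 247 CPM under anti-PD-1 and 277, 264 and 262 CPM under isotype. The asGM1-negative values were 182, 189.9 and 188 CPM under anti-PD-1 and 242, 237 and 273 CPM under isotype. Within each population the anti-PD-1 libraries were the lower ones, without overlap. Cdk4 fell by 0.42 ± 0.08 on the log2 scale in asGM1-negative cells (edgeR adjusted p = 0.00722) and, averaged, by 0.30 ± 0.06 (adjusted p = 0.00329; 18.8% lower). In asGM1-positive cells the change of -0.18 ± 0.08 did not pass (adjusted p = 0.223).

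Cdk6, the kinase partner that lymphocytes use heavily, showed 102, 68.8 and 93.5 CPM in anti-PD-1 asGM1-positive libraries and 164, 140.1 and 109.8 CPM in isotype asGM1-positive libraries. In the asGM1-negative libraries it showed 91.9, 66.3 and 70.6 CPM under anti-PD-1 and 152, 153 and 119.7 CPM under isotype. The highest anti-PD-1 library was below the lowest isotype library. Averaged, Cdk6 fell by 0.77 ± 0.13 on the log2 scale (adjusted p = 0.00213; 41.4% lower). In asGM1-negative cells it fell by 0.89 ± 0.19 (adjusted p = 0.0135), a call lost without isotype replicate 1 (0.0544) or anti-PD-1 replicate 2 (0.0567) or 3 (0.0639). The asGM1-positive change of -0.65 ± 0.19 missed the threshold (adjusted p = 0.0623). Without isotype asGM1-positive replicate 3 it passed (adjusted p = 0.0330), as it did in DESeq2 (0.0119).

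Cdkn1a, a Cip/Kip inhibitor and a classical p53 target, moved the other way. It held 157, 136 and 127 CPM in anti-PD-1 asGM1-positive libraries and 76.0, 104 and 96.8 CPM in isotype asGM1-positive libraries, without overlap. The asGM1-negative libraries held 151, 113 and 104 CPM under anti-PD-1 and 94.9, 109 and 70.1 CPM under isotype, and these overlapped. Averaged, its log2 change was a rise of 0.52 ± 0.13, or 42.9% (edgeR adjusted p = 0.0180). Without anti-PD-1 asGM1-positive replicate 1 the adjusted p was 0.0521, and without both anti-PD-1 replicate 2 libraries it was 0.0519. Within single populations the log2 changes of 0.60 ± 0.19 (asGM1-positive, adjusted p = 0.0778) and 0.43 ± 0.18 (asGM1-negative, adjusted p = 0.190) did not pass.

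Cdkn1b, the Cip/Kip inhibitor of resting T cells, was low. Its libraries held 13.7, 8.63 and 9.63 CPM in the anti-PD-1 asGM1-positive group, 18.7, 12.2 and 12.7 CPM in the anti-PD-1 asGM1-negative group, 10.6, 11.6 and 5.59 CPM in the isotype asGM1-positive group, and 12.4, 12.6 and 8.38 CPM in the isotype asGM1-negative group. Treatments overlapped in both populations. The averaged log2 change was 0.30 ± 0.21 (adjusted p = 0.367), with a 95% interval that still holds a rise of 0.75.

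Among the INK4 inhibitors, Cdkn2d, the one with the highest level, held 99.9, 129.5 and 123 CPM in anti-PD-1 asGM1-positive libraries and 143, 186 and 155 CPM in isotype asGM1-positive libraries. Its asGM1-negative libraries held 111, 132 and 108 CPM under anti-PD-1 and 148, 150.2 and 146 CPM under isotype. All anti-PD-1 libraries were below all isotype libraries, as for Ccnd3 and Cdk6. Such a lower position of all 6 libraries was found for these 3 of the 9 genes and for 3.32% of all genes. Averaged, Cdkn2d fell by 0.40 ± 0.09 on the log2 scale (adjusted p = 0.00912; 24.1% lower). The asGM1-positive fall of 0.46 ± 0.13 was at the threshold (adjusted p = 0.0498) and held only without isotype asGM1-positive replicate 1 among the 12 fits that left out a library, the other 11 giving adjusted p between 0.0553 and 0.194. In asGM1-negative cells the change was -0.34 ± 0.13 (adjusted p = 0.126).

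Cdkn2c, an INK4 inhibitor known from mouse knockouts to restrain T cell division, stood at 33.1, 27.6 and 31.9 CPM in anti-PD-1 asGM1-positive libraries and 34.9, 34.0 and 37.7 CPM in isotype asGM1-positive libraries. In asGM1-negative libraries it stood at 20.4, 18.7 and 20.3 CPM under anti-PD-1 and 22.6, 28.6 and 31.7 CPM under isotype. Within each population the treatments did not overlap, by a narrow margin. Averaged, Cdkn2c fell by 0.34 ± 0.09 (adjusted p = 0.0235), and the call was lost without isotype asGM1-negative replicate 2 (0.0535), anti-PD-1 asGM1-negative replicate 2 (0.0535) or anti-PD-1 asGM1-positive replicate 2 (0.0649). The asGM1-negative fall of 0.48 ± 0.13 (adjusted p = 0.0411) was lost in 8 of the 12 fits that left out a library, all but those without isotype asGM1-negative replicate 1, isotype asGM1-positive replicate 3 or anti-PD-1 asGM1-positive replicate 1 or 2. Without both anti-PD-1 replicate 2 libraries the edgeR adjusted p of Cdkn2c was 0.117 averaged and 0.140 in asGM1-negative cells. The asGM1-positive change was -0.20 ± 0.13 (adjusted p = 0.422).

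Cdkn2a, which encodes an INK4 inhibitor and the p53 activator ARF, was close to the floor. It had 18, 7 and 14 counts in anti-PD-1 asGM1-positive libraries, 0, 11 and 10 in anti-PD-1 asGM1-negative libraries, 14, 8 and 14 in isotype asGM1-positive libraries, and 38, 18 and 11 in isotype asGM1-negative libraries. A difference was not detectable at this depth in any of the 7 comparisons.

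By population, 5 of the 9 genes fell and none rose in asGM1-negative cells, where 8.75% of all genes tested passed. Of these, 785 genes were higher (4.21%) and 848 lower (4.55%), and with library totals in place of the scaling 666 were higher and 1117 lower. In asGM1-positive cells 2 of the 9 fell and none rose, where 6.83% of all genes passed (3.78% higher and 3.04% lower). Counting groups without overlap, 5 of the 9 genes were lower and 1 higher in asGM1-positive cells (12.2% of all genes were lower and 11.8% higher in this way), and 6 were lower in asGM1-negative cells (15.8% of all genes). With both anti-PD-1 replicate 2 libraries left out, 1 gene passed in asGM1-positive cells and 3 in asGM1-negative cells. Over all genes 616 and 813 were then called, against 1274 and 1633 with all libraries. The asGM1-negative count ranged between 1, without anti-PD-1 replicate 3, and 5 when single libraries were left out. It was 2 without isotype replicate 1 and 3 without isotype replicate 2 or 3 or anti-PD-1 replicate 1 or 2 of that population. The asGM1-positive count ranged between 1 and 2.

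**Figure D2:**
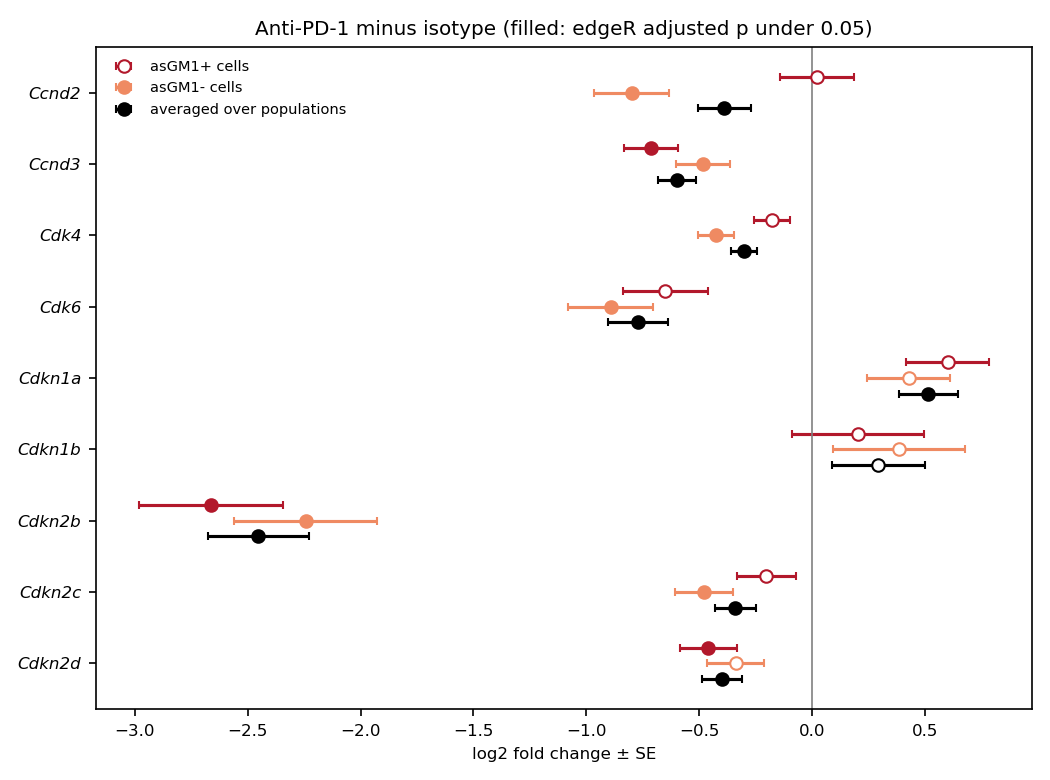
Log2 change of each gene, anti-PD-1 minus isotype, in asGM1-positive cells, in asGM1-negative cells and averaged over both, for 8 of the 9 genes and Cdkn2b (points; bars are ± SE from the edgeR fit; Cdkn2a, close to the floor, is not drawn). Filled points passed the adjusted threshold of 0.05. Ccnd3, Cdk4, Cdk6 and Cdkn2d lie left of 0 in each contrast, Cdkn1a lies right of 0, and Ccnd2 lies at 0.02 in asGM1-positive cells and at -0.80 in asGM1-negative cells.

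Cdkn2b, an INK4 inhibitor induced by transforming growth factor beta, had 1.44, 3.56 and 2.71 CPM in anti-PD-1 asGM1-positive libraries and 19.7, 11.3 and 17.9 CPM in isotype asGM1-positive libraries. Its asGM1-negative libraries had 2.52, 2.69 and 2.16 CPM under anti-PD-1 and 14.2, 10.99 and 9.74 CPM under isotype. The treatments were far apart in both populations. Averaged, Cdkn2b fell by 2.45 ± 0.23 on the log2 scale, a 5.48-fold lower level (edgeR adjusted p = 3.22e-05), with falls of 2.66 ± 0.32 in asGM1-positive cells (0.000524) and 2.24 ± 0.32 in asGM1-negative cells (0.00164). These 3 calls held in every alternative run.

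Ccnd1, which encodes cyclin D1 and is little used by T cells, had 51, 40 and 79 counts in anti-PD-1 asGM1-positive libraries and 150, 37 and 54 counts in isotype asGM1-positive libraries. In the asGM1-negative libraries it had 68, 70 and 86 counts under anti-PD-1 and 336, 179 and 282 counts under isotype. The averaged fall of 1.16 ± 0.35 (adjusted p = 0.0401) was lost in 8 of the 12 fits that left out a library (adjusted p = 0.0585 to 0.101), those without isotype asGM1-negative replicate 1 or 3, isotype asGM1-positive replicate 1, any anti-PD-1 asGM1-negative library or anti-PD-1 asGM1-positive replicate 1 or 2. Without isotype asGM1-positive replicate 1 the change was -0.68. Cdkn1c, the remaining Cip/Kip inhibitor, lay between 0.132 and 0.733 CPM in all libraries and did not pass (log2 change -0.27 ± 0.50, adjusted p = 0.758).

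Some of these genes overlap a gene on the opposite strand, and whether counting used strand is not given in the sources used here. Cdk4 shares 641 exon bases with Tspan31, whose averaged log2 change was 0.21 (adjusted p = 0.0756), opposite in sign to that of Cdk4. Ccnd3 shares 361 exon bases with Bysl, which fell by 0.41 ± 0.11 (adjusted p = 0.0225). Cdk6 shares 368 with the predicted gene Gm17590 (67 to 457 counts), and Ccnd1 shares 1100 with LTO1 (1477 to 2305 counts). Reads from such a pair cannot be told apart without strand.

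The second comparison set asGM1-positive against asGM1-negative cells. Cyclin D2 mRNA was lower, and Cdkn2c higher, in the asGM1-positive population, and no other member passed in the fit without pairing. Averaged over treatments, 1 of the 9 genes rose and 1 fell, where 3.63% of all genes tested passed (1.6% higher and 2.04% lower). Under anti-PD-1 1 of 9 rose (Cdkn2c), where 1.6% of all genes passed (0.949% higher and 0.654% lower). Under isotype 1 of 9 fell (Ccnd2), where 1.3% passed (0.364% higher and 0.938% lower). With both anti-PD-1 replicate 2 libraries left out, the averaged count was 1 (Cdkn2c) and the anti-PD-1 count 0. Over all genes 284 and 17 were then called, against 678 and 299 with all libraries. The median log2 change over the 9 genes was 0.19 under anti-PD-1, 0.01 under isotype and 0.06 averaged, beside -0.01, -0.00 and -0.01 over all genes.

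Ccnd2 fell by 1.09 ± 0.17 in isotype asGM1-positive libraries relative to isotype asGM1-negative ones (edgeR adjusted p = 0.00929; 53% lower), where the values of 271, 166 and 164 CPM all lay below those of 475, 398 and 404 CPM. Under anti-PD-1 the 3 asGM1-positive libraries were again the lower ones, but the log2 change was -0.27 ± 0.16 and did not pass (adjusted p = 0.638). Averaged over treatments, Ccnd2 fell by 0.68 ± 0.12 (adjusted p = 0.00774), and without both anti-PD-1 replicate 2 libraries the adjusted p was 0.0560. Fitting the 6 isotype libraries alone, the isotype call was lost (adjusted p = 0.0860).

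Cdkn2c was higher in the asGM1-positive library of all 6 same-numbered pairs. Averaged, its log2 rise was 0.50 ± 0.09 (edgeR adjusted p = 0.0104), a call that held in every alternative run. Under anti-PD-1 it rose by 0.64 ± 0.13 (adjusted p = 0.0325), with no overlap between 27.6 to 33.1 CPM in asGM1-positive libraries and 18.7 to 20.4 CPM in asGM1-negative libraries. That call was lost without any 1 of the 6 anti-PD-1 libraries (0.0547 to 0.157) or without isotype asGM1-negative replicate 2 (0.0549). It was lost without both anti-PD-1 replicate 2 libraries too (0.210). Under isotype the log2 change was 0.36 ± 0.13 (adjusted p = 0.254).

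Same-numbered libraries of the 2 populations within a treatment deviated together, and fits with the pair as a block added calls. In the paired fit Cdk4 rose by 0.34 on the log2 scale under anti-PD-1 (adjusted p = 0.0289) and by 0.22 averaged over treatments (0.0290), against adjusted p of 0.0558 and 0.0538 without the pairing. Cdk4 lay at 226 to 247 CPM in anti-PD-1 asGM1-positive libraries and 182 to 189.9 CPM in anti-PD-1 asGM1-negative libraries. Cdkn1b was lower in the asGM1-positive library of all 6 pairs and fell by 0.38 in the paired fit averaged over treatments (adjusted p = 0.0435), against -0.35 ± 0.21 (adjusted p = 0.442) without it. How many of all genes kept the same direction in all 6 pairs, as Cdkn1b and Cdkn2c did, was not counted. With the pairing, 4 of the 9 genes passed averaged over treatments and 2 under anti-PD-1. Calls over all genes grew too, to 1662 averaged and 929 under anti-PD-1, against 678 and 299 without the pairing.

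**Figure D3:**
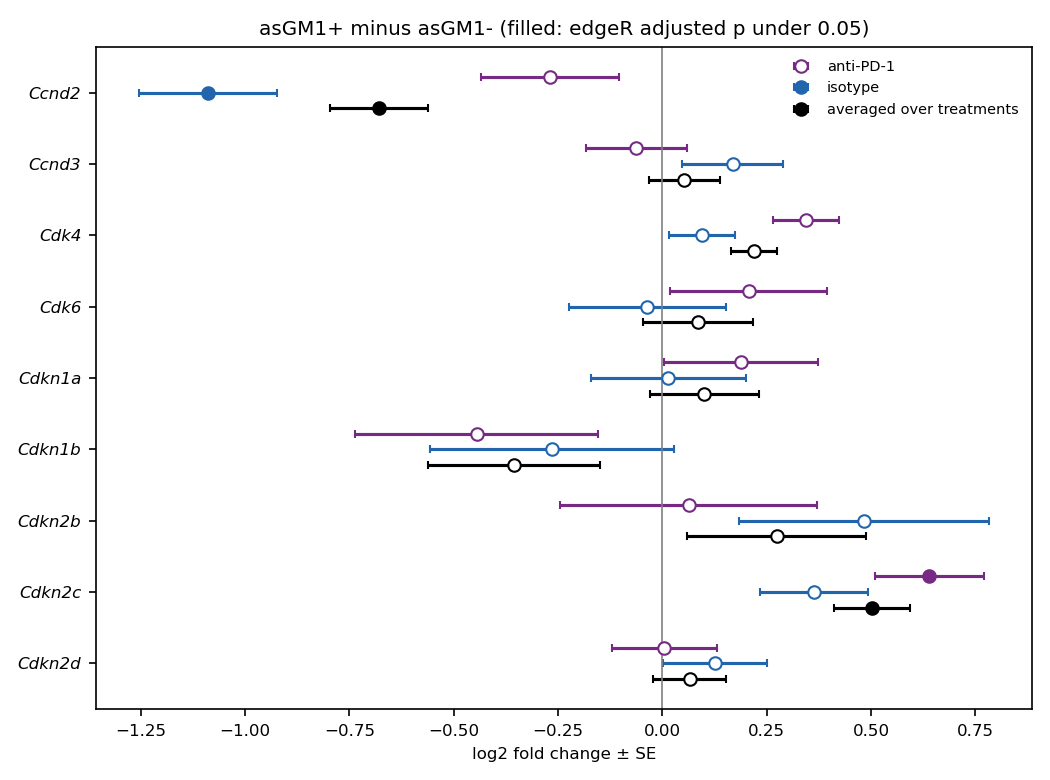
Log2 change of each gene, asGM1-positive minus asGM1-negative, under anti-PD-1, under isotype and averaged over treatments, for the same genes (points; bars are ± SE from the edgeR fit). Filled points passed the adjusted threshold of 0.05. Ccnd2 lies at -1.09 under isotype and at -0.27 under anti-PD-1, and Cdkn2c lies right of 0 in all 3 contrasts.

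Whether the treatment changes differed between populations was tested as an interaction. None of the 9 genes passed, and 0% of all genes tested passed in edgeR, while 1341 genes (7.19%) had an unadjusted p under 0.05. DESeq2 called 136 genes and the paired fit 13. Ccnd2 had an interaction of 0.82 ± 0.23 on the log2 scale (95% interval 0.31 to 1.33; unadjusted p = 0.00435, adjusted p = 0.456; 0.0575 in the paired fit). Cdk4 had an interaction of 0.25 ± 0.11 (unadjusted p = 0.0464, adjusted p = 0.692). The remaining 7 genes had unadjusted p above 0.05.

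Ratios within a library need no scaling between libraries. The log2 ratio of Cdk6 to Cdk4 counts averaged -1.45 ± 0.25 in anti-PD-1 asGM1-positive libraries and -0.97 ± 0.26 in isotype asGM1-positive libraries (SD, n = 3 each). In asGM1-negative libraries it averaged -1.31 ± 0.28 under anti-PD-1 and -0.83 ± 0.31 under isotype. The treatments overlapped in both populations. The log2 ratio of Ccnd2 to Ccnd3 averaged -0.77 ± 0.25 in anti-PD-1 asGM1-positive libraries and -1.54 ± 0.50 in isotype asGM1-positive libraries. These values only just missed overlapping, with a lowest anti-PD-1 value of -1.006 and a highest isotype value of -1.013. In asGM1-negative libraries it averaged -0.56 ± 0.18 under anti-PD-1 and -0.26 ± 0.18 under isotype, with overlap. No test was run on these ratios.

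**Figure D4:**
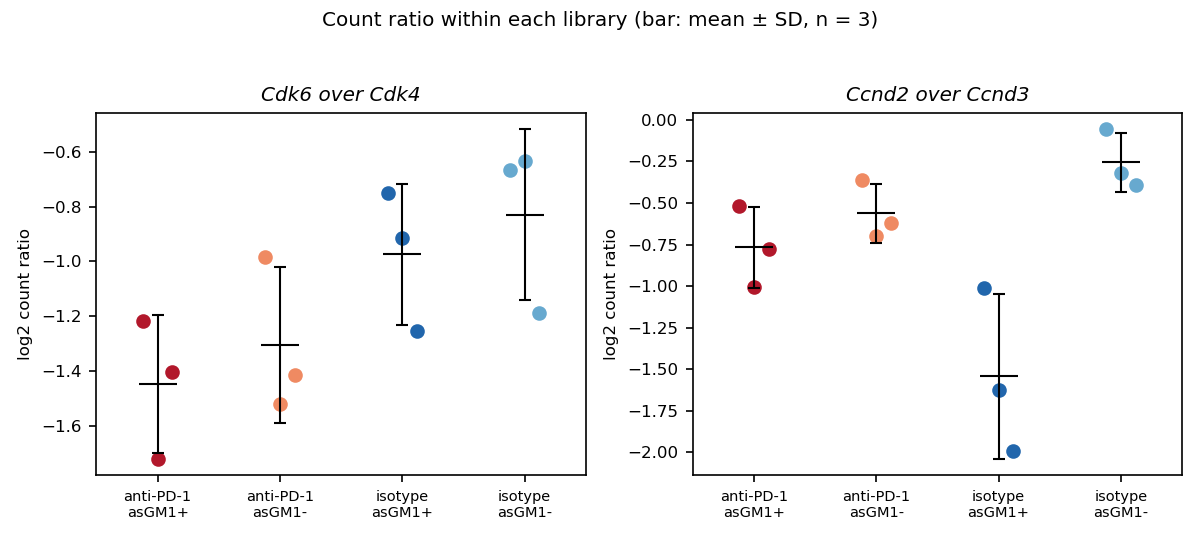
Log2 ratio of counts within each library for Cdk6 over Cdk4 and for Ccnd2 over Ccnd3, by group (1 point per library; black bars are means ± SD, n = 3). The Ccnd2 to Ccnd3 ratio has its lowest mean in isotype asGM1-positive libraries, with values between -1.99 and -1.01.

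Genes acting downstream and upstream of the module were taken from lists drawn up from general knowledge. Among all genes tested 1697 fell and 1720 rose under anti-PD-1, averaged over populations. Of 25 S phase genes driven by E2F, 11 fell and 1 rose (median -0.36), and of 20 genes of mitosis 15 fell and none rose (median -0.48). Without both anti-PD-1 replicate 2 libraries 8 and 10 fell. In asGM1-negative cells 12 of 25 S phase and 14 of 20 mitosis genes fell (medians -0.66 and -0.78). These counts were 9 to 16 and 10 to 17 when single libraries were left out. In asGM1-positive cells 1 of 25 S phase genes fell and 1 rose (median -0.08), and 0 of 20 mitosis genes passed (median -0.22). Among all genes tested 4.55% fell in asGM1-negative and 3.04% in asGM1-positive cells. No gene of either list passed the interaction test without the pairing (given further on). Averaged over populations, Tk1, the thymidine kinase of DNA synthesis, fell by 0.69 ± 0.07 (adjusted p = 0.000108). It lay at 80.7 to 159.8 CPM in anti-PD-1 libraries and 152 to 211 CPM in isotype libraries. Cdk1, the mitotic kinase, fell by 0.62 ± 0.08 (adjusted p = 0.000253), at 58.3 to 130.4 CPM in anti-PD-1 libraries and 109 to 149.7 CPM in isotype libraries. Ube2c, which feeds cyclin B to the proteasome, fell by 0.87 ± 0.13 (adjusted p = 0.000780). The proliferation marker Mki67 changed by -0.45 ± 0.17 and did not pass (adjusted p = 0.0921).

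Within the pocket protein and E2F list, 1 of 13 genes rose and 1 fell. Rbl2, a relative of the retinoblastoma protein that is bound to E2F in resting cells, rose by 0.80 ± 0.12 (adjusted p = 0.000914), with 246 to 323 CPM in anti-PD-1 libraries and 142 to 223 CPM in isotype libraries, which did not overlap. E2f1 fell by 0.53 ± 0.10 (adjusted p = 0.00369). Rb1 itself showed 0.47 and did not pass (adjusted p = 0.0962). Of 8 genes of the cyclin E, cyclin A and CDK2 module 3 fell, among them Ccna2 by 0.51 ± 0.11 (adjusted p = 0.00651) and Ccne2 by 0.51 ± 0.15 (adjusted p = 0.0314, lost in 8 of the 12 fits that left out a library, all but those without replicate 2 of either isotype group or replicate 1 of either anti-PD-1 group). Ccne1 (-0.31, adjusted p = 0.0531) and Cdk2 (-0.13, adjusted p = 0.509) did not pass. In asGM1-negative cells 4 of these 8 genes fell (median -0.43), or 1 to 4 when single libraries were left out. In asGM1-positive cells 0 of 8 passed (median -0.10), and 0 of 8 passed the interaction test. In the turnover list 3 of 18 fell and 1 rose, led by Cks1b, the cofactor with which SKP2 marks the Cdkn1b protein for destruction, which fell by 0.53 ± 0.08 (adjusted p = 0.00095). Skp2 itself changed by -0.35 (adjusted p = 0.0590).

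Of 20 p53 target genes, a list that left out Cdkn1a, 12 rose and none fell (median 0.45), with 10 rising without both anti-PD-1 replicate 2 libraries. In asGM1-negative cells 7 of the 20 rose (median 0.40), where 4.21% of all genes were higher. That count was 3 without isotype replicate 1 or anti-PD-1 replicate 3 of that population. It was 4 without anti-PD-1 replicate 2 or both replicate 2 libraries. In asGM1-positive cells 6 of the 20 rose (median 0.48), where 3.78% of all genes were higher. This count was 3 to 8 when single libraries were left out, and 0 of the 20 passed the interaction test. Averaged over populations, Perp, a membrane protein of the p53 response, rose by 1.29 ± 0.13 (adjusted p = 5.59e-05). It had 14.7 to 23.5 CPM in anti-PD-1 libraries and 6.97 to 10.2 CPM in isotype libraries. Phlda3 (1.11 ± 0.13, adjusted p = 0.000144) and Trp53inp1 (0.73 ± 0.06, adjusted p = 1.49e-05) rose too. Mdm2, the ubiquitin ligase that degrades p53, rose by 0.47 ± 0.10 (adjusted p = 0.00760). Trp53 mRNA fell by 0.31 ± 0.06 (adjusted p = 0.00334). Of 12 quiescence genes 9 rose and none fell (median 0.44; 6 rose without both anti-PD-1 replicate 2 libraries), among them Tsc1, a brake on mTOR, by 0.57 ± 0.09 (adjusted p = 0.00110). Btg2 and Klf2 stand in 2 of these lists each.

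Upstream regulators of D-type cyclins were split, with 10 of 30 rising and 7 falling. Myc fell by 0.83 ± 0.17 (adjusted p = 0.00521), with 32.4 to 48.6 CPM in anti-PD-1 libraries and 45.9 to 103.6 CPM in isotype libraries. Mxi1, which competes with MYC for MAX, rose by 0.97 ± 0.10 (adjusted p = 5.38e-05), with 139 to 197 CPM in anti-PD-1 libraries and 77.6 to 97.3 CPM in isotype libraries. Pim2, a kinase induced by cytokines, fell by 0.94 ± 0.13 (adjusted p = 0.000504), while its relative Pim1 rose by 0.92 (adjusted p = 0.000147) and Stat3 by 1.02 (adjusted p = 0.000493). Foxo1, a transcription factor of resting T cells, rose by 0.49 ± 0.10 (adjusted p = 0.00458).

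Between populations the S phase and mitosis lists held called genes under anti-PD-1. Of the 25 S phase genes 13 were higher in anti-PD-1 asGM1-positive than asGM1-negative libraries and none lower (median log2 change 0.77), and of the 20 mitosis genes 14 were higher (median 0.85), beside 1.6% of all genes called in either direction. Under isotype 0 of 25 and 0 of 20 passed, with medians of 0.13 and 0.30, and in the paired fit 1 of 25 and 7 of 20 were higher. Leaving out any 1 of the 6 anti-PD-1 libraries brought the anti-PD-1 counts to 2 to 7 and 3 to 9, leaving out isotype asGM1-negative replicate 2 brought the mitosis count to 8, and leaving out both anti-PD-1 replicate 2 libraries brought both to 0. Under anti-PD-1 the paired fit called 24 and 18. Cdk1 was 0.86 ± 0.11 higher on the log2 scale (adjusted p = 0.00482; 0.0588 without both anti-PD-1 replicate 2 libraries), with 101 to 130.4 CPM in anti-PD-1 asGM1-positive libraries and 58.3 to 64.3 CPM in anti-PD-1 asGM1-negative libraries. No gene of either list passed the interaction test without the pairing, and 1 mitosis gene passed it in the paired fit.

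**Figure D5:**
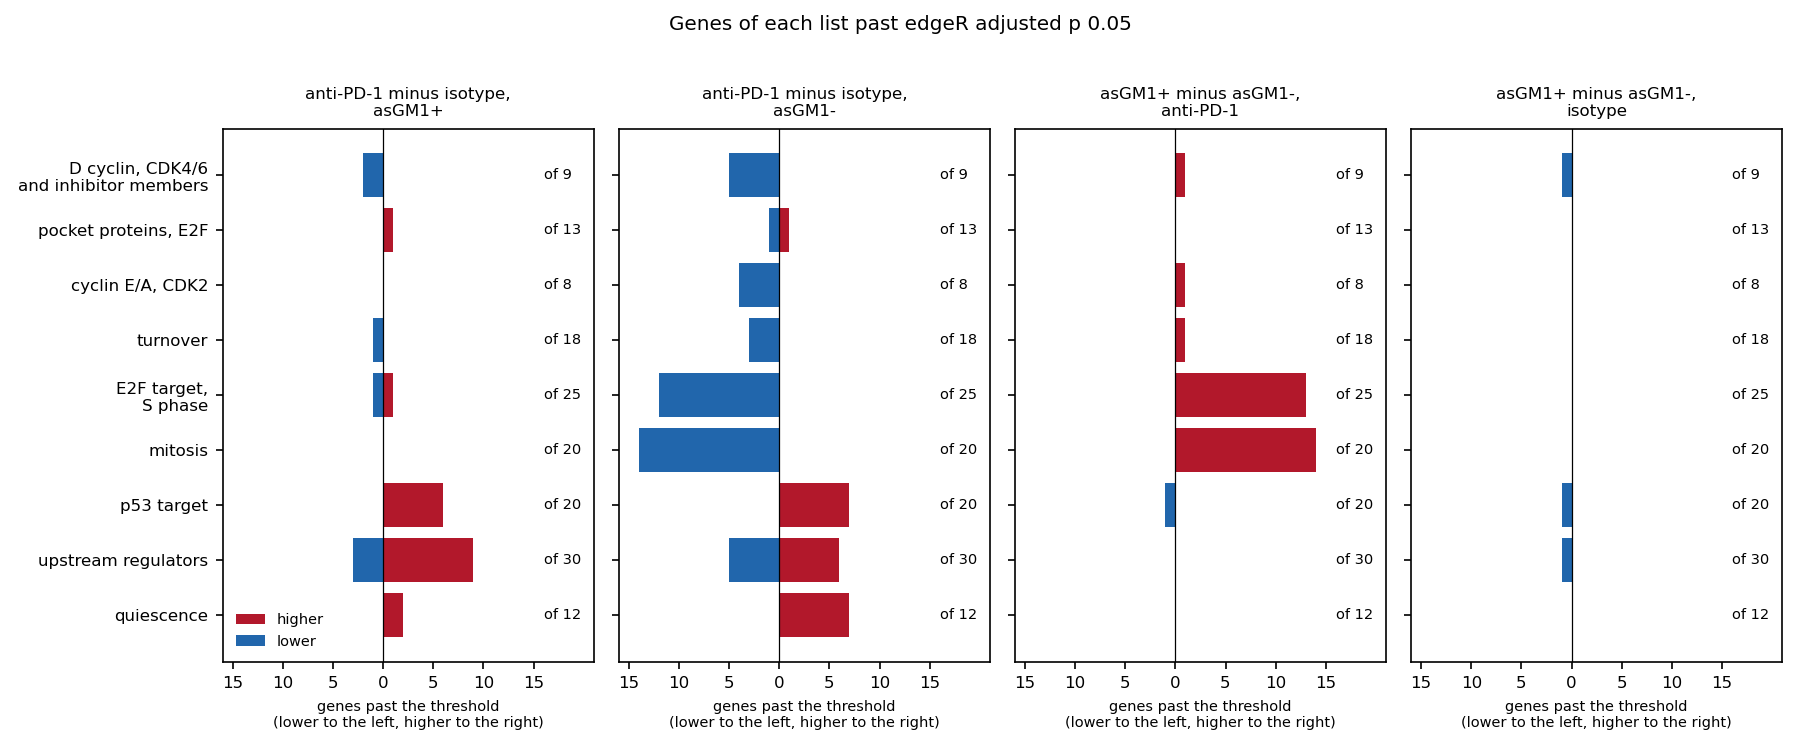
Number of genes in each pathway list past the edgeR threshold in asGM1-positive and asGM1-negative cells for anti-PD-1 minus isotype, and under anti-PD-1 and isotype for asGM1-positive minus asGM1-negative. Bars start at 0, with lower genes to the left and higher genes to the right, and the size of each list is given. In asGM1-negative cells 12 of 25 S phase and 14 of 20 mitosis genes were lower under anti-PD-1, and in asGM1-positive cells 1 and 0. Among all genes tested 4.55% and 3.04% were lower in these contrasts. No gene of either list passed the interaction test without the pairing.

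Heat-shock genes and markers of CD8+ T cells and of other cells were counted too. In the treatment contrast averaged over populations 18.3% of all genes tested passed (9.1% lower and 9.22% higher). Beside that share, 6 of 8 heat-shock genes fell, their summed level being 2247 to 2849 CPM in anti-PD-1 libraries and 3211 to 4138 CPM in isotype libraries. Of 8 CD8+ T cell markers 2 fell, with summed levels of 9285 to 12189.6 CPM in anti-PD-1 and 11519 to 13638 CPM in isotype libraries, and Cd8a itself fell by 0.34 ± 0.06 (adjusted p = 0.00334). Of 8 markers of CD4+ and regulatory T cells 1 rose, with summed levels of 1259 to 1645 CPM in anti-PD-1 and 569 to 1079.8 CPM in isotype libraries. Of the natural killer cell markers 1 rose and 2 fell of 5 tested, with summed levels of 135 to 283 CPM in anti-PD-1 and 183 to 475 CPM in isotype libraries. Macrophage markers and plasmacytoid dendritic cell markers each had 1 of 12 rising and 2 falling, 1 of 7 tumour and stroma markers fell, and 0 of 2 B cell markers passed. When single libraries were left out, 0 or 1 natural killer cell marker rose, 1 to 3 CD8+ T cell markers, 1 to 3 macrophage markers, 0 to 4 plasmacytoid dendritic cell markers, 0 to 2 tumour and stroma markers and 0 or 1 B cell marker fell. The part of these cells in the changes of the 9 genes was not tested.

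Between populations, 1.6% of all genes tested passed under anti-PD-1 and 1.3% under isotype. In asGM1-positive cells 7 of 12 macrophage markers were higher under anti-PD-1 and 8 of 12 under isotype. The anti-PD-1 count was 3 without asGM1-negative replicate 2, 4 without asGM1-negative replicate 1 or asGM1-positive replicate 3, and 0 without both anti-PD-1 replicate 2 libraries, and the isotype count was 4 or 5 without any isotype library but asGM1-positive replicate 3. Their summed level was 183 to 319.8 CPM in asGM1-positive and 72.4 to 117 CPM in asGM1-negative libraries. C1qb, one of them, lay at 19.15 to 43.3 CPM in asGM1-positive and 4.49 to 9.60 CPM in asGM1-negative libraries. Of 12 markers of plasmacytoid dendritic cells 7 were lower under anti-PD-1 (4 without anti-PD-1 asGM1-positive replicate 3, and 2 without both anti-PD-1 replicate 2 libraries) and 10 under isotype (4 without isotype asGM1-negative replicate 1). Their summed level overlapped under anti-PD-1, with 750.2 to 954 CPM in asGM1-positive and 823 to 933 CPM in asGM1-negative libraries, and under isotype was 755 to 806 CPM in asGM1-positive and 895 to 1115 CPM in asGM1-negative libraries. Within this list 3 genes were at 0 in all 3 anti-PD-1 asGM1-positive libraries and 1 in all 3 isotype asGM1-positive libraries, and Siglech lay at 0 to 0.489 CPM in asGM1-positive and 25.1 to 71.3 CPM in asGM1-negative libraries. Of 8 CD4+ and regulatory T cell markers 2 were lower under anti-PD-1 (1 without asGM1-negative replicate 2, and 0 without both replicate 2 libraries) and 2 under isotype (1 when the asGM1-negative library of number 1 or 2, or the asGM1-positive one of number 2, was left out, and 5 in the paired fit). Their summed level was 1259 to 1460 CPM in anti-PD-1 asGM1-positive and 1587 to 1645 CPM in anti-PD-1 asGM1-negative libraries. Under isotype it overlapped, with 569 to 850 CPM in asGM1-positive and 788 to 1080 CPM in asGM1-negative libraries. Foxp3, one of these markers, lay at 1.91 to 7.13 CPM in asGM1-positive and 16.55 to 59.3 CPM in asGM1-negative libraries. Of 5 natural killer cell markers tested none passed without the pairing, while the paired fit called 1 higher under anti-PD-1 and 2 under isotype, and leaving out the anti-PD-1 asGM1-negative library of number 2, alone or with its asGM1-positive partner, gave 1 higher under isotype. None of 7 tumour and stroma markers passed under either treatment. Of the 2 B cell markers tested 1 was lower under isotype, a call lost in 8 of the 12 fits that left out a library. The part of these cells in the lower Ccnd2 and higher Cdkn2c was not tested.

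Genes with the most similar profile were found for the 7 members that passed in at least 1 contrast, by the root mean square difference of mean-centred log2 CPM over the 12 libraries. Ccnd3 was closest to Srebf2 (0.0922), Cdk4 to Pfn1 (0.0597), Cdk6 to Ptpn4 (0.172), Cdkn2d to Txnrd2 (0.0708) and Cdkn2c to Cenpn (0.118). Cdkn1a was closest to Chd7 (0.163) and next to Sesn2 (0.169). Ccnd2 had the loosest match, Ifi211 at 0.248. These distances depend on how much a member itself varied. A member's own root mean square was 0.2037 for Cdk4, 0.2425 for Cdkn2d, 0.3306 for Ccnd3 and 0.3341 for Cdkn2c. It was 0.3424 for Cdkn1a, 0.4485 for Cdk6 and 0.4831 for Ccnd2. The next in line were Ccdc102a and Acat2 for Ccnd3, Mrpl18 and Ddx39b for Cdk4, Tnks1bp1 and Gapdh for Cdk6, Selenoi for Cdkn1a, Bora and Psat1 for Cdkn2c, Arl2 and Psmg2 for Cdkn2d, and Gramd1b and Gpr18 for Ccnd2.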

How the data were processed

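Transcripts were measured by RNA-seq of 12 libraries, made after TRIzol extraction with TruSeq mRNA and SMARTer ultra-low-input kits, per the labels' protocols. HISAT2, StringTie and mm39 are named in the submitters' processing notes, without role; their versions, and the way reads were counted, are not stated there. The deposited table holds unnormalized counts per gene. The members, gene lists and tests were chosen with earlier results of these data known.

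Genes were kept by edgeR's filterByExpr (18657 of 56941), scaled by TMM (factors 0.97 to 1.04) and fitted in 1 robust quasi-likelihood model of 4 groups (8 residual degrees of freedom, biological coefficient of variation 0.336), using R 4.3.3, edgeR 4.0.16 and limma 3.58.1. P-values were adjusted by Benjamini-Hochberg over all genes, with a threshold of 0.05. Alternatives were DESeq2 1.42.0, limma-voom, RLE scaling, library totals, no filter, only the libraries compared, replicate blocks, libraries left out and, added after seeing the data, a non-robust prior. The pipeline was tested on simulated data.

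Whether replicate numbers pair libraries was checked from deviations from group means over 18657 genes. Same-numbered libraries of one treatment had correlations of 0.121 to 0.298 in all 6 pairs, above 0.1, so the number was taken to pair asGM1-positive with asGM1-negative libraries. Across treatments the correlations ran between -0.118 and 0.0497, and numbers were not taken as pairs.

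Named were all members, a preset set of relatives and markers, per pathway list and contrast up to 4 genes with the smallest p among those called (or the 1 smallest where none was), and the 3 genes with the most similar profile per called member, among 8651 named genes whose log2 CPM averaged 3 or more. Exon lengths and overlaps come from GENCODE M21 (GRCm38), promoters from RefSeq. Intervals and count floors cover counting error or library spread only.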

Additional observations from a re-analysis of the deposited data

Results flagged for a closer look

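Ccnd3 did not pass between populations under anti-PD-1 (-0.06 ± 0.12 on the log2 scale, edgeR adjusted p = 0.948) or isotype (0.17 ± 0.12, adjusted p = 0.642), but its same-numbered pairs lay on opposite sides of 0. Within the 3 anti-PD-1 pairs the asGM1-positive library was lower than the asGM1-negative one each time, by -0.11, -0.03 and -0.06 on the log2 scale. Within the 3 isotype pairs it was higher each time, by 0.14, 0.04 and 0.30. The interaction was -0.23 ± 0.17 on the log2 scale (edgeR adjusted p = 0.878), so the difference between treatments did not pass its test.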

How the results depend on the processing

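Of 22 calls on the 9 genes and their relatives, 10 held in every alternative run: Cdkn2c between populations averaged, Cdk4 in asGM1-negative cells and averaged, Ccnd3 in asGM1-positive cells and averaged, Cdk6 and Cdkn2d averaged, and Cdkn2b in all 3 treatment contrasts. Of 119 called results for named pathway genes, 74 held in every alternative and 0 changed direction. The number of the 9 genes past the threshold moved as follows. In the treatment contrast averaged over populations it was 4 without both anti-PD-1 replicate 2 libraries, against 7. In asGM1-negative cells it was 3 without both, against 5. In asGM1-positive cells (2) it was 4 with DESeq2 and 1 without the expression filter, with only the libraries compared, without both replicate 2 libraries or with a non-robust prior. Between populations under anti-PD-1 (1) it was 2 with DESeq2, RLE scaling, library totals or the replicate block within a treatment, and 0 without both replicate 2 libraries. Under isotype (1) it was 0 with only the libraries compared. Averaged over treatments (2) it was 4 with the pair block and 1 without both replicate 2 libraries. Leaving out 1 library gave 5 to 7 in the averaged treatment contrast, 1 to 2 in asGM1-positive and 1 to 5 in asGM1-negative cells, 0 to 2 between populations under anti-PD-1, 1 to 1 under isotype, 2 to 3 averaged, and 0 to 0 for the interaction.

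No called result changed sign. Among uncalled ones, Cdkn1a between populations under isotype turned to -0.0492 with library totals and -0.0055 without the filter, and ranged between -0.14 and 0.16 when single libraries were left out. The other log2 ranges that crossed 0 when single libraries were left out were, between populations under isotype, Cdk6 -0.18 to 0.10 and Cdkn2d -0.0056 to 0.21. Under anti-PD-1 they were Cdkn2d -0.0712 to 0.13 and Ccnd3 -0.15 to 0.0495, and averaged Cdkn2d -0.0055 to 0.12 and Ccnd3 -0.00039 to 0.10. Between treatments in asGM1-positive cells they were Ccnd2 -0.10 to 0.30, Cdkn1b -0.0552 to 0.41 and Ccnd1 -0.98 to 0.36, and for the interaction Cdkn1b -0.44 to 0.0423 and Cdkn2d -0.20 to 0.0091. The cause of these moves was not tested.

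Over all genes, DESeq2 called 845 under anti-PD-1, 789 under isotype and 1419 averaged between populations, and 2759 and 2264 in the asGM1-negative and asGM1-positive treatment contrasts, against 299, 243, 678, 1633 and 1274. The pair block called 929, 755 and 1662 between populations. Without both replicate 2 libraries 17 were called under anti-PD-1, 284 averaged, and 813, 616 and 2148 in the asGM1-negative, asGM1-positive and averaged treatment contrasts. Fits of only the libraries compared called 80 under isotype and 694 in asGM1-positive cells. A block by number across treatments, which the libraries' deviations did not bear out as pairs, called Cdk6 in asGM1-positive cells (adjusted p = 0.0293) and Cdkn2d in asGM1-negative cells (0.0497) and lost Ccnd1 averaged (0.0571). On simulated data of this size the fit recovered 56 of 100 genes changed by 1 and 89 of 100 changed by 2 on the log2 scale.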
